A study of Mus musculus with 4 samples.

Results

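The mouse pro-B cell line Ba/F3 depends on interleukin-3 (IL-3), and BCR-ABL is the tyrosine kinase fusion found in chronic myeloid leukaemia, which can replace that factor. A set of 10 genes around the tumour suppressor p53 and the GADD45 stress proteins were taken by symbol from the annotation of the Affymetrix Gene 1.0 ST array. Of these, 9 were measured, each by 1 probe set, among 19935 genes in all, and Trp53 itself was not analysed here. The 4 arrays came from cells grown to logarithmic phase in 3 groups: doxycycline-inducible BCR-ABL cells with doxycycline at 500 ng/ml and IL-3 (1 array), the same kind of cells with doxycycline and no IL-3 (2 arrays, A and B), and parental cells with IL-3 (1 array). The labels name neither the clones of the inducible line nor doxycycline for the parental cells, and nothing in them tells whether A and B are separate cultures. The p-values therefore reflect the gap between this pair of arrays, largely as pooled over all genes, and that gap could be technical. BCR-ABL, doxycycline, the derived line and, for A and B, the lack of IL-3 changed together against the parental array and cannot be told apart.

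The transcription factor p53 is held low by the ubiquitin ligase Mdm2 and is stabilised by DNA damage and other stresses. It then switches on genes that halt the cell cycle, repair DNA, limit growth or kill the cell, and several of these genes, Mdm2 among them, feed back to end the response. The GADD45 proteins are small acidic nuclear proteins that bind PCNA, the kinase Cdk1 and the stress kinase Map3k4. Their genes answer to different inputs, p53 and FOXO factors for Gadd45a and NF-kB and cytokines for Gadd45b and Gadd45g.

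Promoter sequences of 300 bases, from 250 before to 50 after the annotated start, were held by the RefSeq table (GRCm38.p6) for 7 of the 9 measured genes. They were searched on both strands for the p53 half-site, a degenerate motif of 10 bases. They were also searched for GTAAACA (FOXO), TGATGCAA (ATF4), CCAAT (the CCAAT box) and TATAAA (the TATA box). The half-site occurred in 5 of the 7 genes, against 8.36% of all 32851 promoters in the table. A gene counted if any of its starts had a match, whereas that share counts single promoters. These members include genes known as p53 targets, so the motif is no independent observation. Each matched promoter held a lone half-site. Adjacent pairs of half-sites and sequence outside the window were not searched, and binding by p53 was not tested. The half-site was present in Mdm2, Ppm1d, Ccng1, Gadd45a and Sesn1 (in Sesn1 at 1 of 2 annotated starts). Gadd45b and Gadd45g had no match in this window. Trp53inp1 and Zmat3 had no promoter sequence in the RefSeq table, so neither was searched. The promoters of Mdm2 and the GADD45 family are shown because 3 of these 4 genes passed the test given further on, with the half-site in capitals.
Mdm2, chr10:117710709-117711008, minus strand: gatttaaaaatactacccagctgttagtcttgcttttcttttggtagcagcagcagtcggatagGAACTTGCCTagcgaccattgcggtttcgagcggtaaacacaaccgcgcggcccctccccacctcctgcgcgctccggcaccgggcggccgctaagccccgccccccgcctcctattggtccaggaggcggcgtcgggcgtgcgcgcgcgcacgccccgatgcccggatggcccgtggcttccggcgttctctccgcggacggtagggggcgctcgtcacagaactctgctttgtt
Gadd45a, chr6:67037358-67037657, minus strand: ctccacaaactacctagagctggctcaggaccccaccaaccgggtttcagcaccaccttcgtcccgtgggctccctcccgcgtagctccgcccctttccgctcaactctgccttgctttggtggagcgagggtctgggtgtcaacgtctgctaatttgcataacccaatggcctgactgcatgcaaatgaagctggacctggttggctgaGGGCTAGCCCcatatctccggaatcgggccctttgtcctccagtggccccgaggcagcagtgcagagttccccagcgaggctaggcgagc
Gadd45b, chr10:80929841-80930140, plus strand: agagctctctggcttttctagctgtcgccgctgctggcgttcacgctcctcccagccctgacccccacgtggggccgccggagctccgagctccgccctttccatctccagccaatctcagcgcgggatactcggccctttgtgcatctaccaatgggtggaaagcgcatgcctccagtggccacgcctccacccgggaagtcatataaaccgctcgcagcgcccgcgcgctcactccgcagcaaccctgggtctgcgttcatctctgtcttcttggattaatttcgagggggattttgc
Gadd45g, chr13:51846425-51846724, plus strand: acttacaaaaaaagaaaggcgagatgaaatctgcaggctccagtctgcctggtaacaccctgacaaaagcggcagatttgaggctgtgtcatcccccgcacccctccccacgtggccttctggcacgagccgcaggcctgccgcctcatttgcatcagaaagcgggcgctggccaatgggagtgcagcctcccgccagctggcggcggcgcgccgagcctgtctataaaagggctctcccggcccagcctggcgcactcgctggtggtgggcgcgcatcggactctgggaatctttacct
The half-site of Mdm2, GAACTTGCCT, begins 186 bases before the start, and that of Gadd45a, GGGCTAGCCC, begins 40 bases before it. The matches in Ppm1d (GAGCTTGCTC), Ccng1 (GGGCAAGCCT) and Sesn1 (AAGCTTGTTT) begin 132, 185 and 173 bases before the start. A FOXO match lay in Mdm2, 153 bases before the start, and in Sesn1 at the other of its starts, against 3.65% of all promoters. A TATA box lay 46 bases before the start of Gadd45b and 27 bases before that of Gadd45g, against 13.6% of all promoters. The ATF4 motif was found in Gadd45g alone among the 7, against 0.895% of all promoters. Each of the 7 had a CCAAT box in at least 1 promoter, against 37.4% of all promoters, and 0 pairs of matches in these genes overlapped.

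The deposited values are differences on a log scale relative to the parental array. Base 2, usual for such arrays, was assumed because no source gives the base, and every fold printed here rests on it. The parental value is thus 0 for all 28815 probe sets, and absolute levels were not analysed. The line's identity could therefore not be checked by the level of pro-B cell markers. Of 7 measured pro-B cell markers 0 were called in either comparison, and their differences for cells without IL-3 lay between -0.40 and 0.17. Of 14 markers of fibroblasts, epithelium, endothelium, T and NK cells 0 were called in either comparison, where 8.06% of all genes were called without IL-3 against parental cells and 0.00502% with IL-3 against without. Their differences for cells without IL-3 lay between -0.50 and 0.077, with Cd3g, a chain of the T cell receptor complex, the lowest (adjusted p = 0.0595). Their mean log2 difference from the parental array was -0.0095 on the IL-3 array, -0.018 on A and -0.18 on B. Array B was low over all probe sets, with a median of -0.064, against -0.0016 on A and 0.0029 on the IL-3 array. Differences are called here at a Benjamini-Hochberg adjusted p under 0.05 in 1 limma fit over all genes, whose only measure of spread is the gap between A and B.

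**Figure D1:**
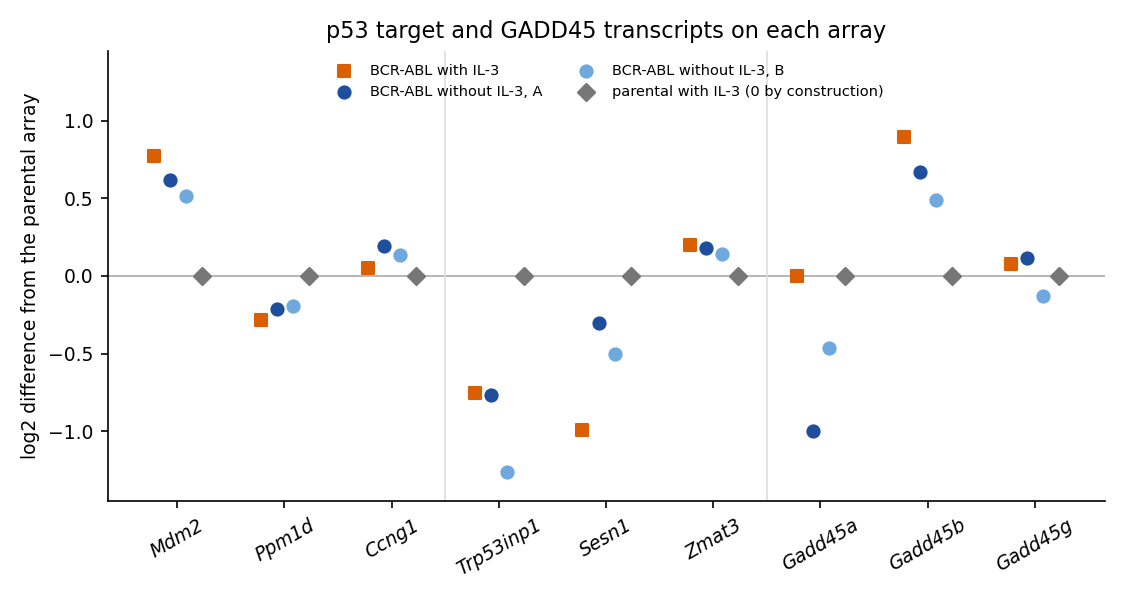
Log2 difference from the parental array (vertical axis) for the 9 measured genes (horizontal axis), with 1 point per array: BCR-ABL with IL-3 (square), BCR-ABL without IL-3 A and B (circles) and the parental array, which is 0 by construction (diamond). Mdm2 and Gadd45b are above 0 on all 3 BCR-ABL arrays, Trp53inp1 and Sesn1 are below 0 on all 3, and Gadd45a is at 0.0014 on the IL-3 array and at -0.998 and -0.47 on A and B.

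Cells in which BCR-ABL replaced IL-3 differed from parental cells in 4 of the 9 genes, and not in one direction. Mdm2 and Gadd45b rose 1.48-fold and 1.49-fold, while Trp53inp1 fell 2.02-fold and Gadd45a 1.66-fold. These 4 are 44.4% of the measured members, where 8.06% of all 19935 genes were called (5.19% higher and 2.87% lower). At an unadjusted p under 0.05 stood 5 of the 9, where 16.6% of all genes did. The members were chosen with results of these data known, so the gap between these shares has no test. The median over the 9 was -0.0065 (log2), against -0.038 over all genes. Both A and B are set against the same parental array, so an error on that array would shift them alike.

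Of the 3 genes that act back on p53, Mdm2 was called and Ppm1d and Ccng1 were not. Mdm2, the ligase that marks p53 for degradation, lay 0.62 and 0.52 above the parental array on A and B (log2). Both arrays without IL-3 were above the parental array, by a similar amount. The mean difference was 0.57 ± 0.072 (SD, n = 2), with an SE of 0.15 from the fit and an adjusted p of 0.0274. Ppm1d, a phosphatase that reverses damage-induced phosphorylation of p53 and its kinases, was at -0.21 and -0.20 on A and B. A and B were close together, and the mean of -0.20 did not pass (95% interval -0.52 to 0.12, adjusted p = 0.692). Ccng1, cyclin G1, a p53 target that acts with the phosphatase PP2A on Mdm2, was at 0.19 and 0.13 on A and B and did not pass (mean 0.16, 95% interval -0.16 to 0.49).

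Among the effectors, Trp53inp1 had the widest difference of the 9 genes. Trp53inp1, a nuclear and autophagy protein that promotes p53-dependent death, was at -0.77 and -1.26 on A and B. Both lay below the parental array, but B was lower than A by 0.49, a gap reached by 2.03% of all genes. The mean was -1.01 ± 0.35 (SD, n = 2), with an SE of 0.18 and an adjusted p of 0.00146. Sesn1, a sestrin that restrains mTORC1 and is a target of p53 and FOXO factors, was at -0.30 and -0.50 on A and B. Both were below the parental array, and the mean of -0.40 did not pass (SE 0.16, unadjusted p = 0.021, adjusted p = 0.166). Zmat3, an RNA-binding zinc finger protein, was at 0.18 and 0.14 on A and B, and its mean of 0.16 did not pass (95% interval -0.16 to 0.48).

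Of the 3 GADD45 genes, Gadd45b was called higher, Gadd45a was called lower and Gadd45g was not called. Gadd45b, the family member first found in myeloid differentiation, was at 0.67 and 0.49 on A and B. Both lay above the parental array, with a mean of 0.58 ± 0.13 (SD, n = 2), an SE of 0.16 and an adjusted p of 0.0267. Gadd45a, the classical DNA damage-inducible member, was at -0.998 and -0.47 on A and B. Both lay below the parental array, but A was lower than B by 0.53, a gap reached by 1.51% of all genes. The mean was -0.73 ± 0.38 (SD, n = 2), with an SE of 0.19 and an adjusted p of 0.0197. Gadd45g, the cytokine-responsive member, was at 0.11 on A and -0.13 on B, so the arrays lay on both sides of the parental array, and the mean of -0.0065 did not pass (95% interval -0.34 to 0.33). The direction of Gadd45g turned positive, to 0.026, with arrays centred on their medians. Set against each other within an array, the difference of Gadd45b exceeded that of Gadd45a by 1.67 on A and 0.96 on B (log2).

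None of the 4 calls held with arrays centred on their medians, where 570 genes were called in all, against 1607 without centring. The adjusted p was then 0.065 for Mdm2, 0.071 for Gadd45b, 0.0758 for Trp53inp1 and 0.258 for Gadd45a, with every difference raised by 0.033 (log2). Pooling the IL-3 array with A and B left Mdm2 called (adjusted p = 0.0482) and took the call from Trp53inp1, Gadd45b and Gadd45a (adjusted p = 0.0627, 0.0742 and 0.652, with differences of -0.93, 0.69 and -0.49), and Gadd45a also missed the threshold with robust empirical Bayes (adjusted p = 0.0518).

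**Figure D2:**
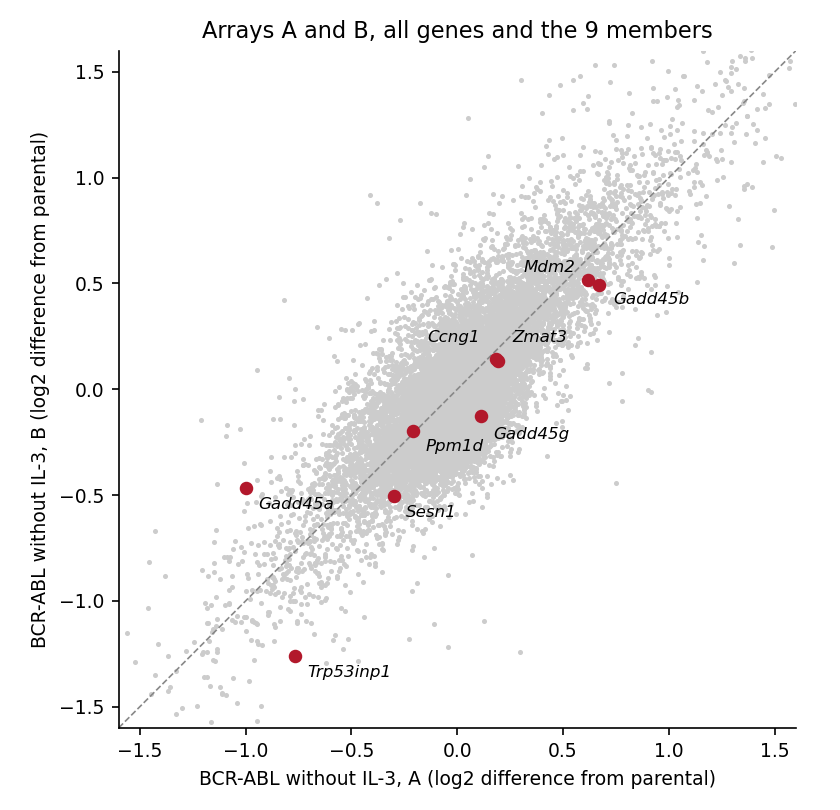
Log2 difference from the parental array on array A (horizontal axis) and array B (vertical axis) for all genes (grey) and the 9 measured members (red), with the line of equality dashed. The axes end at 1.6 in each direction, which leaves 128 genes outside, and Gadd45a and Trp53inp1 lie farthest from the line among the 9.

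BCR-ABL cells grown with IL-3 were next set against BCR-ABL cells grown without it, to ask what IL-3 adds while the kinase is expressed. Of the 9 genes 0 were called by limma, where 0.00502% of all genes (1 gene) were called. At an unadjusted p under 0.05 stood 2 of the 9, Gadd45a and Sesn1, where 4.52% of all genes did. The IL-3 array lay outside the range of A and B for 8 of the 9 genes (5 above and 3 below), or 88.9%, where 65.4% of all genes did (39.9% above and 25.5% below).

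Gadd45a stood at 0.0014 on the IL-3 array, against -0.998 and -0.47 on A and B. The array with IL-3 was thus level with the parental array, and both arrays without IL-3 were below it. The difference was 0.73 (log2, 1.66-fold, SE 0.19, 95% interval 0.34 to 1.13) and 99.9% of all genes had a lower one, yet the adjusted p was 0.448. It was 1.00 against A alone and 0.47 against B alone. Sesn1 went the other way, at -0.99 on the IL-3 array, against -0.30 and -0.50 on A and B. The IL-3 array was the lowest of the 3, with a difference of -0.59 (SE 0.16, 95% interval -0.92 to -0.25), and 0.316% of all genes had a lower one, with an adjusted p of 0.46. Gadd45b was highest on the IL-3 array at 0.90, against 0.67 and 0.49 on A and B, and the difference of 0.32 did not pass (95% interval -0.014 to 0.65).

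The other 6 genes differed by less. Mdm2 was at 0.77 on the IL-3 array, against 0.62 and 0.52 on A and B (difference 0.20, 95% interval -0.12 to 0.53). Trp53inp1 was at -0.75 on the IL-3 array, against -0.77 and -1.26 on A and B. It was level with A and above B, with a difference of 0.26 (95% interval -0.13 to 0.65). Ppm1d, Ccng1, Zmat3 and Gadd45g stood at -0.28, 0.053, 0.20 and 0.076 on the IL-3 array. Their differences from cells without IL-3 were -0.082, -0.11, 0.036 and 0.082, and the 4 intervals of 95% lay within -0.43 and 0.42. The arrays A and B enter both comparisons, so a gene that was low on them by chance is pushed down in the first and up in the second.

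**Figure D3:**
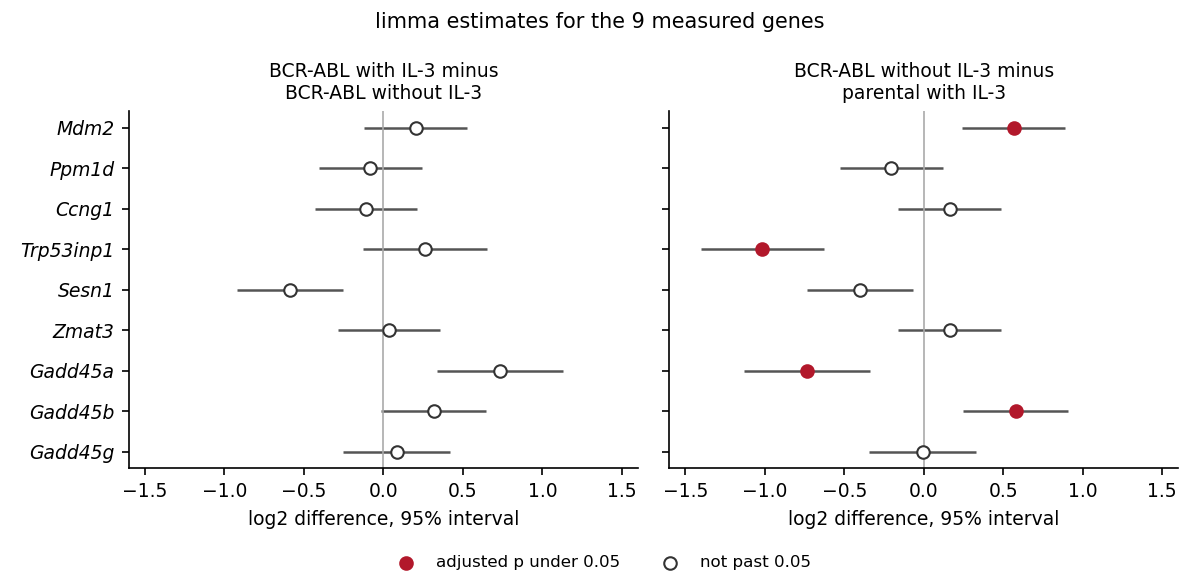
Limma estimates of the log2 difference with 95% intervals (horizontal axis) for the 9 genes (vertical axis), for BCR-ABL with IL-3 minus BCR-ABL without IL-3 (left) and BCR-ABL without IL-3 minus parental with IL-3 (right). Filled points passed an adjusted p under 0.05: Mdm2, Trp53inp1, Gadd45a and Gadd45b on the right, and 0 genes on the left.

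BCR-ABL cells with IL-3 were also set against parental cells with IL-3, which keeps the growth factor constant but has 1 array on each side and therefore no test. At least 1.5-fold apart were 4 of the 9 genes, or 44.4%, where 5.83% of all genes were (3.3% higher and 2.53% lower). The 1.5-fold threshold was chosen after the values were seen and the members with earlier results known, so these shares have no test. Gadd45b was 1.86-fold and Mdm2 1.70-fold higher, and Sesn1 was 1.99-fold and Trp53inp1 1.69-fold lower. Gadd45a, called lower without IL-3, was 1.00-fold apart from the parental array here. This comparison shares the parental array with the first and the IL-3 array with the second, so its values are no separate evidence. Within the IL-3 array the difference of Gadd45b exceeded that of Gadd45a by 0.90 (log2).

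The rest of the pathway was described with 5 lists of other genes, of which 49 of 56 genes were measured. Called higher in BCR-ABL cells without IL-3 against parental cells were 4 of the 49 and lower 0, where 5.19% and 2.87% of all genes were called. The median over the 49 was 0.010, against -0.038 over all genes. In the comparison of BCR-ABL cells with and without IL-3, 0 of the 49 were called.

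Of 6 measured genes of cell cycle arrest 0 were called, with differences between -0.19 and 0.43, and Cdkn1a, the CDK inhibitor p21, was not analysed here. Of 13 genes of apoptosis and death 1 was called higher, Aen, a p53-induced nuclease, at 0.73 and 0.42 on A and B (mean 0.58, SE 0.17, adjusted p = 0.0383). The BH3-only death genes Bbc3 (PUMA) and Pmaip1 (NOXA) did not pass, at -0.29 and -0.086, and Bax was not analysed here. Of 10 genes of repair, metabolism and autophagy 2 were called higher. Sesn2, the sestrin that answers to ATF4 as well as p53, was at 0.98 and 1.08 on A and B (2.05-fold, SE 0.15, adjusted p = 0.000236), and it was at 1.12 on the IL-3 array. Its difference exceeded that of its paralog Sesn1 by 1.28 on A, 1.59 on B and 2.11 on the IL-3 array (log2). Tigar, which lowers fructose-2,6-bisphosphate and so glycolytic flux, was at 0.60 and 0.51 on A and B (mean 0.56, SE 0.15, adjusted p = 0.0302).

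Of 16 upstream regulators and cofactors of p53 1 was called higher, the checkpoint kinase Chek1, at 0.60 and 0.74 on A and B (1.59-fold, SE 0.16, adjusted p = 0.00995). The IL-3 array had 0.20 for Chek1, below both arrays without IL-3, and that difference of -0.46 did not pass (adjusted p = 0.763). Mdm4, the partner of Mdm2, and Cdkn2a, the locus of p16 and p19ARF, stood at -0.091 and 0.030 and did not pass. Of 4 measured binding partners of the GADD45 proteins 0 were called, with differences between -0.26 and 0.36. With arrays centred on their medians, Sesn2 kept its call (adjusted p = 0.0279), while Aen, Tigar and Chek1 missed the threshold at adjusted p-values of 0.115, 0.0668 and 0.068. With the IL-3 array pooled with A and B, Sesn2 was called too (adjusted p = 0.00628) and Aen, Tigar and Chek1 were not (adjusted p = 0.0966, 0.0564 and 0.266).

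**Figure D4:**
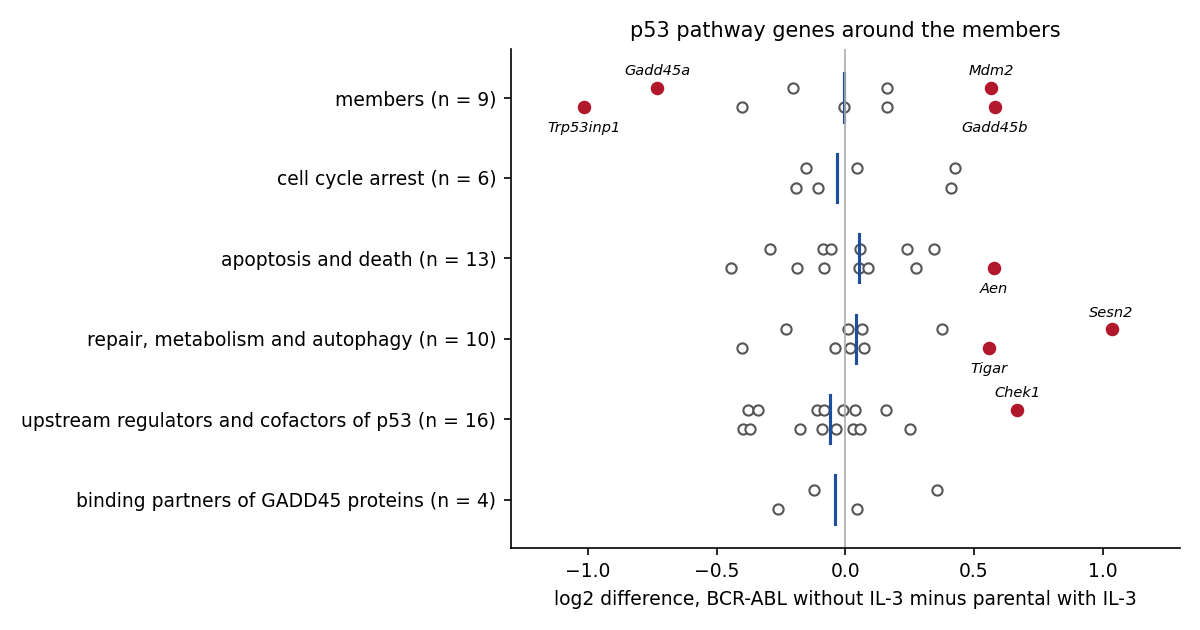
Log2 difference of BCR-ABL cells without IL-3 minus parental cells with IL-3 (horizontal axis) for each gene of the 9 members and the 5 pathway lists (rows), with genes past an adjusted p of 0.05 filled and named and each row's median as a vertical bar. The 4 called genes of the lists, Aen, Sesn2, Tigar and Chek1, lie to the right of 0, while the called members lie on both sides.

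Trp53inp1, the member with the widest difference, was compared with non-member genes, leaving out predicted and clone-named genes, olfactory and vomeronasal receptors and small RNAs. Those whose 3 differences from the parental array were closest to it were H1f2, Slc66a2 and Gfi1b. Their Euclidean distances to it were 0.091, 0.14 and 0.15 (log2) over the 3 BCR-ABL arrays. These distances rest on 3 values per gene, all relative to the same parental array, and shared regulation was not tested.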

How the data were processed

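RNA of 4 samples was hybridised to Affymetrix Gene 1.0 ST arrays as labelled cDNA, per the labels' protocols. The values the authors deposited are differences relative to the parental array, whose column is 0 throughout, and were taken as log2. How background, normalization and probe summary were handled, and the logarithm's base, are not given in the sources used here. Base 2 is an assumption. Of 86431 values other than 0, 99.8% were whole multiples of 2 raised to -21, within the rounding of their printed digits, as differences of numbers stored in single precision would be, which does not settle the base. An odd multiple shows a stored value below 8 on some array, and none of the 9 genes had an odd multiple. An even multiple does not exclude such a value. The number of arrays limits the precision.

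Probe sets with exactly 1 symbol in the platform annotation (21780, against 1605 with several and 5430 not listed) were averaged to 19935 genes, of which 19853 matched RefSeq (GRCm38.p6) by gene identifier. All 4 arrays were fitted with limma 3.58.1 (R 4.3.3) as 3 group means, two-sided, with Benjamini-Hochberg adjustment over all genes. The lone arrays were taken to vary as A and B do. The prior had 16.38 degrees of freedom and an SD of 0.128. For 1 array against 1 a 1.5-fold gap was used, chosen after the values were seen. Named genes are the 10 members, the called genes of the lists, Cdkn1a, Bax, Bbc3, Pmaip1, Mdm4 and Cdkn2a, and the 3 genes closest to the member with the widest difference. The search for those 3 left out members, predicted and clone-named genes, olfactory and vomeronasal receptors and small RNAs. Other genes named for their values fall outside this rule. The members and lists were chosen with earlier results of these data known. Alternatives were centring, leaving out probe sets shown to have a stored value below 8, single probe sets and robust empirical Bayes. Further ones were pooling the 3 BCR-ABL arrays, a threshold of 0.1, and leaving out A or B.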

Additional observations from a re-analysis of the deposited data

Results flagged for a closer look

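Gadd45a, Bbc3 and Mdm4 lay below the parental array on both arrays without IL-3 and above it on the array with IL-3. The same signs were found for 2094 of all 19935 genes (10.5%), for 1 of the 9 members and for 7 of the 49 list genes. The other list genes were Fas, Btg2, Plk2, Aifm2 and Kat5, chosen after their values were seen. Fas had a difference of 0.38 between cells with and without IL-3 (log2), which did not pass limma's test (adjusted p = 0.99). The corresponding differences were 0.73 for Gadd45a, 0.33 for Bbc3 and 0.18 for Mdm4. Limma's test of that difference did not pass for any of the 3, with adjusted p-values of 0.448 for Gadd45a and 1.00 for Bbc3 and for Mdm4. The IL-3 array exceeded the parental array by 0.0014 for Gadd45a, 0.036 for Bbc3 and 0.088 for Mdm4, and it is a single array. With arrays centred on their medians, that value was -0.0015 for Gadd45a, which then no longer had these signs.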

How the results depend on the processing

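Centring each array on its median moved most counts. In cells without IL-3 against parental cells the calls over all genes were then 384 higher and 186 lower, against 1035 and 572, and 0 of the 9 members were called, against 4. The prior fell to 4.21 degrees of freedom under centring. Pooling the 3 BCR-ABL arrays gave 550 higher and 349 lower genes, and Mdm2 was then the 1 member called (adjusted p = 0.0482). Gadd45g turned to 0.026 under centring and 0.021 under pooling, against -0.0065, and was called in none of these fits. Robust empirical Bayes left 3 members called. The other alternatives say little about the 4 called members, because each has 1 probe set and none was shown to have a stored value below 8. Dropping probe sets shown to have one, or fitting single probe sets, therefore left their differences as they were. Only the shared spread and the adjustment changed (4 called in each), and a threshold of 0.1 cannot remove a call. After that dropping, 966 genes were called higher and 511 lower among 12964, a larger share than among all 19935. With IL-3 against without, the count of genes called higher was 0 under centring, 3 with single probe sets and 2 at a threshold of 0.1, against 1, and 0 members were called under each. Leaving out A or B leaves no residual degree of freedom and so no test. Without A the 4 called members stood at 0.52 (Mdm2), 0.49 (Gadd45b), -1.26 (Trp53inp1) and -0.47 (Gadd45a). Without B they stood at 0.62, 0.67, -0.77 and -0.998 in the same order. No paired analysis was possible because only 1 group has more than 1 array.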
